A study of Mus musculus with 12 samples.

Results

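The receptors for the constant part of IgG (the Fc gamma receptors Fcgr1, Fcgr2b, Fcgr3 and Fcgr4), the adaptor chains Fcer1g and Tyrobp, and the phagocyte receptors Trem2, Itgam and Msr1 were followed in the hippocampus of epileptic mice after a systemic inflammatory challenge. Members were the transcript probes that the array files name by these 9 gene symbols. The condition for keeping a probe was that 1 or more of the groups had all 3 of its arrays well above background for it. All 18 member probes, for 9 of 9 genes, met it, among 27683 probes kept of 41174 transcript probes on the array. Of these, 15 were well above background on all 12 arrays. The other 3 are all for Msr1: A_51_P404846 also met the condition in saline 24 h, and A_52_P127130 and A_52_P607128 met it through the LPS groups only. The gene symbols of the array design were used, and Fcgr4 and Tyrobp have 1 probe each.

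The animals were C57BL/6N males of 12 weeks, injected in the left dorsal hippocampus with 50 nl of 20 mM kainate (KA, an agonist of a class of glutamate receptors), after which recurrent seizures developed. After 3 weeks they were given intraperitoneal saline or 100 µg/kg lipopolysaccharide (LPS, from the outer membrane of Gram-negative bacteria, here Salmonella enterica serotype abortus equi). Whole hippocampus was taken 4 or 24 h later, with 3 animals in each of the groups saline 4 h, LPS 4 h, saline 24 h and LPS 24 h. All 4 groups, the saline controls included, carry the kainate lesion, so every value below is a difference between kainate-injected animals. The labels state neither the side of the hippocampus nor the hour of day, and only the labels say that each array is a separate animal.

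Fc gamma receptors bind antibody-coated targets on macrophages, microglia, neutrophils and other leukocytes. Fcgr1, Fcgr3 and Fcgr4 are activating receptors that signal through Fcer1g, the common gamma chain, which carries an immunoreceptor tyrosine-based activation motif (ITAM); Fcgr2b is the inhibitory receptor and carries its own inhibitory motif. Tyrobp (DAP12) is a second ITAM adaptor and pairs with Trem2, a microglial receptor for lipids and lipoproteins. Once phosphorylated by kinases of the Src family, an ITAM recruits the kinase Syk, and the phosphatases Ptpn6 (SHP-1) and Inpp5d (SHIP1) oppose it. Itgam (CD11b) forms complement receptor 3 with Itgb2, and Msr1 is a class A scavenger receptor. In the healthy brain microglia are the main cells that carry most of these receptors.

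The array probes are 60 bases long. Shown are 4 that were judged to lie in coding sequence, for 3 of the Fc gamma receptors and for Tyrobp. The probes shown for Fcgr1, Fcgr2b and Fcgr3 are not the brightest of their genes. The brightest probes of these 3 genes are described first below and are not printed. Probe sequences and positions are those of the array design, on mouse build mm9. The Fcgr1 probe lies at chr3:96088398-96088461 on the minus strand, that of Fcgr2b at chr1:172895833-172895892 (minus), that of Fcgr3 at chr1:172984129-172984188 (minus) and that of Tyrobp at chr7:31200651-31202378 (plus, across exons). In the Tyrobp probe the capitals mark 12 bases that encode a tyrosine unit of the ITAM.
Fcgr1 A_52_P47846: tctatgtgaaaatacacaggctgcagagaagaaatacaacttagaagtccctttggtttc
Fcgr2b A_52_P545613: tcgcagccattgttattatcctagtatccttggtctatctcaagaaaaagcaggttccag
Fcgr3 A_52_P408757: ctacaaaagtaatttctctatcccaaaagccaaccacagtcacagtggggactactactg
Tyrobp A_51_P261517: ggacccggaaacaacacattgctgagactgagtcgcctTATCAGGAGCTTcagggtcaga
Fcgr2b and Fcgr3 have closely similar extracellular domains in the mouse. The Fcgr3 probe shown lies in such a domain, and whether it also binds Fcgr2b transcripts was not tested. The 18 probes were compared only with each other, where no stretch of over 9 bases was shared. They were not compared with transcripts, so that comparison does not bear on what the Fcgr3 probe binds.

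The 250 bases before the start site of Fcgr1 and of Fcgr4 are shown because these 2 activating receptors stood out between 4 and 24 h. They are RefSeq sequences on GRCm38.p6, at chr3:96293970-96294219 (minus strand) and chr1:171018676-171018925 (plus strand). RefSeq promoters were matched by symbol for 7 of the 9 genes, which leaves out Tyrobp and Msr1. The capitals mark matches to motifs searched on both strands.
Fcgr1 promoter: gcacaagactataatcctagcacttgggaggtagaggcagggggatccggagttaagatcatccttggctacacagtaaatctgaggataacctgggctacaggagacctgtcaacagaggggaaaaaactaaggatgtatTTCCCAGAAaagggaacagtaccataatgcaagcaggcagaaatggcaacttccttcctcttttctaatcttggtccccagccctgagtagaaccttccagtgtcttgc
Fcgr4 promoter: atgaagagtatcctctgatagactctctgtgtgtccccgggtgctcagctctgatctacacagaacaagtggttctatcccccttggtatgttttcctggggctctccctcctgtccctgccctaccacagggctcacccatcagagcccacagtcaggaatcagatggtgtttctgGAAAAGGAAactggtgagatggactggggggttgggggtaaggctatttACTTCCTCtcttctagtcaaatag
The Fcgr1 window holds the letters of an interferon-gamma-activated site, TTCNNNGAA, 109 bases before the start site, and 7.02% of all 32851 promoter windows hold such a match. In the Fcgr4 window the core of an interferon-stimulated response element, GAAANNGAA, lies 73 bases before the start site, and 7.13% of all windows hold one. The same window has a PU.1 match (GAGGAAGT, on the minus strand) 24 bases before the start site, a motif found in 2.44% of windows. Trem2 has an AP-1 match (TGANTCA) 9 bases before its start site, as do 6.75% of windows. None of the 4 motifs was found in the windows of Fcgr2b, Fcgr3, Fcer1g and Itgam. These are matches of letters and say nothing of binding.

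Signal was measured on 12 one-colour arrays, and values below are log2 processed intensity minus the 75th percentile of the same array, so a level is relative to the bright end of its own array and 0 is that percentile. Before this scaling the percentile at 4 h was 385 ± 12.6 intensity units (SD, n = 3) for saline and 702 ± 35.3 for LPS. At 24 h it was 798 ± 61.4 for saline and 863 ± 124 for LPS. Detection, as the group mean of the share of transcript probes well above background, ran from 54.6% to 69.7%, and 0 spots were saturated. Per the file headers the 4 h arrays were all scanned on 1 date and the 24 h arrays on another. Arrays that share a scan date are called a scan session here. Time after injection and scan session therefore cannot be told apart. Each of 6 slides held 1 saline and 1 LPS array of the same time. Within groups the SD of a kept probe had a median of 0.055 to 0.074 log2 units.

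The comparison of LPS with saline asks how the hippocampal transcripts of these receptors differ during a systemic inflammatory response. At 24 h, 17 of 18 member probes were higher after LPS and 0 were lower, and 8 of 9 genes were higher on every probe. At 4 h the members were split: 12 probes were higher, 5 lower, and 1 (a dim Fcgr1 probe) did not pass the test. Fcgr2b, Fcgr3, Fcgr4, Fcer1g and Msr1 were higher on every probe at 4 h, Itgam and Tyrobp were lower on every probe, and the brightest probes of Fcgr1 and Trem2 were lower. The median log2 difference over the 18 probes was 0.34 at 4 h and 1.03 at 24 h, beside -0.09 and -0.02 over all 27683 probes. Without the 2 Msr1 probes that were kept only where LPS signal is high, 10 of 16 were higher and 5 lower at 4 h, and 15 of 16 were higher at 24 h. The median log2 difference of those 16 was 0.21 at 4 h and 1.01 at 24 h. Calls are at an adjusted p under 0.05 from limma over all kept probes. Of all probes, 31.4% were called higher and 39.8% lower at 4 h, and 19.3% were called higher and 23.5% lower at 24 h, 42.7% in either direction. The 4 h member counts stand against a background in which most probes were called, with 71.2% called in either direction. By non-overlap alone, the 3 LPS arrays of 4 h all lay above the 3 saline arrays for 12 member probes and all below them for 6, beside 32.6% and 42% of all probes. At 24 h they all lay above for 17 and overlapped for 1, beside 25.5% of all probes above and 28.8% below. The 2 Msr1 probes kept only through the LPS groups are among those above at both times and lend these counts no support. With each array scaled to its median instead, 9 member probes were called higher and 6 lower at 4 h, and with quantile normalization 12 and 3. Of all 27683 probes, 20143 were called at 4 h with median scaling, 32.6% of these higher. With quantile normalization 19121 were called, 46.2% of these higher.

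**Figure D1:**
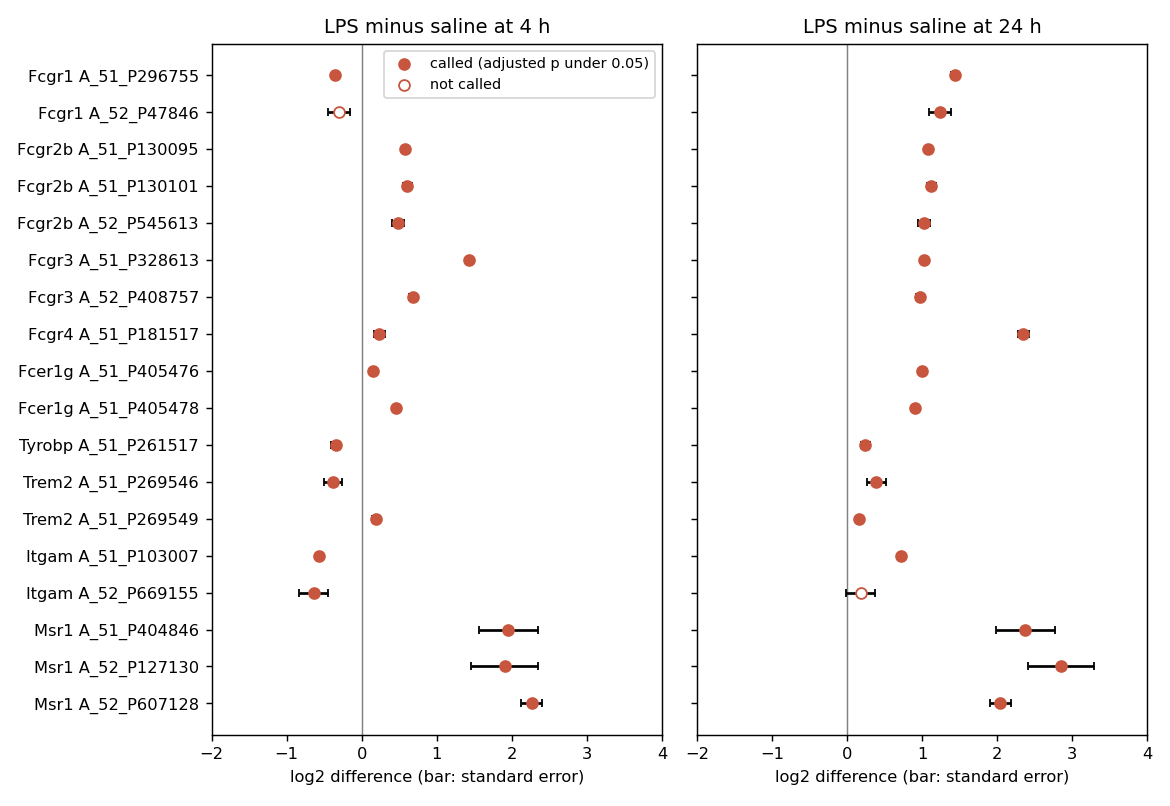
The log2 difference of LPS minus saline (x axis) is plotted for each of the 18 member probes at 4 h (left) and 24 h (right), with bars for the standard error and filled points for an adjusted p under 0.05. At 4 h the probes of Fcgr1, Tyrobp and Itgam and 1 of 2 for Trem2 lie below 0, and at 24 h all 18 points lie above 0, with Fcgr4 and Msr1 farthest to the right.

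Fcgr1 encodes the high-affinity receptor for IgG. Its brighter probe, A_51_P296755, read 4.06, 3.98 and 3.99 on the saline 4 h arrays and 3.60, 3.66 and 3.70 after LPS. At 24 h the saline arrays read 1.72, 1.78 and 1.83 and the LPS arrays 3.20, 3.17 and 3.26. The 3 LPS arrays therefore lay below the saline arrays at 4 h and above them at 24 h, with no overlap at either time. LPS minus saline was -0.35 (SE 0.043, adjusted p = 4.01e-05, limma) at 4 h and 1.43 (SE 0.043, adjusted p = 1.1e-08) at 24 h, a 2.70-fold higher level at 24 h. Within the 3 slides of a time it ran from -0.37 to -0.33 and from 1.39 to 1.48. The 4 h difference did not pass the test after quantile normalization (-0.04, adjusted p = 0.372) or in the authors' deposited log2 values (-0.08, adjusted p = 0.176). The dimmer probe, A_52_P47846, differed by -0.31 (SE 0.15, adjusted p = 0.0861) at 4 h and by 1.24 (SE 0.15, adjusted p = 0.000115) at 24 h.

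Fcgr4 is the mouse activating receptor of intermediate affinity for IgG2a and IgG2b. Its single probe read -0.67, -0.38 and -0.42 in saline 4 h and -0.25, -0.25 and -0.28 in LPS 4 h. In saline 24 h it read -2.13, -2.16 and -2.17, and in LPS 24 h 0.16, 0.14 and 0.29. The 24 h groups were far apart and the LPS 24 h arrays were the highest of all 12, whereas at 4 h the LPS arrays stood only just above the highest saline array. The log2 difference was 0.23 (SE 0.071, adjusted p = 0.013, limma) at 4 h, 1.18-fold, and 2.35 (SE 0.071, adjusted p = 1.07e-08) at 24 h, 5.10-fold. The 4 h call was lost with median scaling (0.07, adjusted p = 0.288), with normexp background correction (0.17, adjusted p = 0.117), in the deposited log2 values (0.14, adjusted p = 0.0724) and when only the 4 h arrays were fitted (adjusted p = 0.0521).

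Fcgr3, the low-affinity activating receptor, was higher after LPS at both times on both probes. A_51_P328613 read 2.36, 2.39 and 2.36 in saline 4 h and 3.77, 3.81 and 3.83 in LPS 4 h. At 24 h it read 1.91, 1.83 and 2.01 in saline and 2.94, 2.91 and 2.97 after LPS. The groups did not overlap at either time, and the LPS 4 h arrays were the highest. The difference was 1.43 (SE 0.045, adjusted p = 3.16e-09, limma) at 4 h and 1.02 (SE 0.045, adjusted p = 1.4e-07) at 24 h, that is 2.70-fold and 2.03-fold. The 2 probes did not give the same size at 4 h. A_52_P408757, the coding probe printed above, differed by 0.68 (SE 0.053, adjusted p = 1.47e-06) at 4 h and by 0.98 (SE 0.053, adjusted p = 6.43e-07) at 24 h.

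The inhibitory receptor Fcgr2b was also higher at both times, on all 3 of its probes. A_51_P130095, the mean of 10 spots on each array, read 1.91, 1.95 and 1.95 in saline 4 h and 2.51, 2.54 and 2.47 in LPS 4 h. Its 24 h levels were 0.63, 0.67 and 0.66 in saline and 1.77, 1.75 and 1.68 after LPS. No LPS array overlapped the saline arrays of its time. LPS minus saline was 0.57 (SE 0.034, adjusted p = 1.97e-07, limma) at 4 h and 1.08 (SE 0.034, adjusted p = 1.46e-08) at 24 h, a 2.12-fold higher level. The other Fcgr2b probes lay close by, with 0.60 and 0.48 at 4 h and 1.12 and 1.03 at 24 h. Activating and inhibitory receptors thus both had higher signal after LPS at 24 h, with Fcgr4 showing the largest log2 difference of the 4 receptors.

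Fcer1g, the signalling chain shared by the activating receptors, read 3.40, 3.44 and 3.41 in saline 4 h and 3.54, 3.57 and 3.59 in LPS 4 h on A_51_P405476. At 24 h it read 1.95, 1.84 and 1.89 in saline and 2.91, 2.89 and 2.87 after LPS. The 4 h groups were apart by a small step and the 24 h groups by a large one. The log2 difference was 0.15 (SE 0.033, adjusted p = 0.00219, limma) at 4 h and 1.00 (SE 0.033, adjusted p = 2.36e-08) at 24 h, and the 4 h value turned to -0.012 (adjusted p = 0.797) with median scaling. With normexp it was 0.17 and not called (adjusted p = 0.109). The probe A_51_P405478 gave 0.46 (SE 0.037, adjusted p = 1.75e-06) and 0.91 (SE 0.037, adjusted p = 8.5e-08).

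Tyrobp, the other ITAM adaptor, moved little with LPS. It read 5.36, 5.37 and 5.34 in saline 4 h and 5.03, 5.07 and 4.93 in LPS 4 h. At 24 h the saline arrays read 3.57, 3.61 and 3.44 and the LPS arrays 3.81, 3.87 and 3.66. The LPS arrays lay below saline at 4 h and just above it at 24 h. The log2 difference was -0.35 (SE 0.063, adjusted p = 0.000597, limma) at 4 h and 0.24 (SE 0.063, adjusted p = 0.011) at 24 h, 1.18-fold. The 4 h value was near 0 and not called with quantile normalization (0.056, adjusted p = 0.452) and in the deposited log2 values (0.021, adjusted p = 0.764). At 24 h the call was lost with median scaling (0.17, adjusted p = 0.0516) and with normexp (0.21, adjusted p = 0.0858).

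Trem2, the partner receptor of Tyrobp, gave opposite signs on its probes at 4 h. The brighter probe, A_51_P269546, read 7.04, 7.18 and 7.16 in saline 4 h and 6.74, 6.76 and 6.72 in LPS 4 h, a difference of -0.39 (SE 0.12, adjusted p = 0.0179, limma). A_51_P269549 read 4.51, 4.58 and 4.58 in saline 4 h and 4.70, 4.79 and 4.75 in LPS 4 h, a difference of 0.19 (SE 0.046, adjusted p = 0.00453). On each probe the 3 LPS arrays were apart from the 3 saline arrays, in opposite directions, so that no direction at 4 h can be given for the gene. The call of the brighter probe was lost without saline 4 h replicate 2 (adjusted p = 0.052), and with quantile normalization its value was 0.15 (adjusted p = 0.341). It was also not called in the deposited log2 values (0.15, adjusted p = 0.187) or with the percentile taken over bright probes (-0.27, adjusted p = 0.0757). The call of A_51_P269549 was lost with median scaling (0.024, adjusted p = 0.716) and with normexp (0.20, adjusted p = 0.124).

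At 24 h the brighter Trem2 probe read 4.35, 4.92 and 4.84 in saline and 5.14, 5.12 and 5.02 after LPS. A_51_P269549 read 3.05, 3.15 and 3.21 in saline and 3.30, 3.26 and 3.34 after LPS. Both probes were higher after LPS on every array, by 0.39 (SE 0.12, adjusted p = 0.0281, limma) and 0.16 (SE 0.046, adjusted p = 0.0188). Neither call held when only the 24 h arrays were fitted (adjusted p = 0.092 and 0.0644) or with median scaling (0.32 and 0.087, adjusted p = 0.075 and 0.237), and normexp lost that of A_51_P269549 (0.17, adjusted p = 0.29). Leaving out LPS 24 h replicate 1 or 2 also lost the call of the brighter probe (adjusted p = 0.0794 and 0.0735), as did leaving out saline 24 h replicate 1 or LPS 24 h replicate 3 for the other (adjusted p = 0.0623 and 0.0578).

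Itgam, the alpha chain of complement receptor 3, was lower after LPS at 4 h and higher at 24 h on its tighter probe. A_51_P103007 read -1.04, -1.06 and -1.11 in saline 4 h and -1.65, -1.66 and -1.62 in LPS 4 h. At 24 h it read -2.36, -2.34 and -2.36 in saline and -1.62, -1.63 and -1.64 after LPS. The LPS arrays of both times overlapped, while the saline arrays lay above them at 4 h and below them at 24 h. The log2 difference was -0.57 (SE 0.027, adjusted p = 3.86e-08, limma) at 4 h and 0.72 (SE 0.027, adjusted p = 4.95e-08) at 24 h. The second probe, A_52_P669155, differed by -0.64 (SE 0.19, adjusted p = 0.0124) at 4 h. At 24 h its LPS arrays read -3.10, -2.80 and -2.35 around the saline arrays at -2.94, -2.90 and -2.95, and the difference of 0.18 (SE 0.19, adjusted p = 0.486) was not called.

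Msr1, which takes up modified lipoproteins and other polyanionic ligands, was higher after LPS at both times on all 3 probes, from a signal near background in saline. A_51_P404846 read -4.83, -5.02 and -3.14 in saline 4 h, where 1 of the 3 arrays was well above background, and -2.33, -2.31 and -2.50 in LPS 4 h. At 24 h it read -5.03, -5.05 and -4.87 in saline and -2.59, -2.53 and -2.69 after LPS. LPS and saline arrays did not overlap, although saline 4 h replicate 3 stood above the other 2. The difference was 1.95 (SE 0.39, adjusted p = 0.0013, limma) at 4 h and 2.38 (SE 0.39, adjusted p = 0.000971) at 24 h. A_52_P607128 was not well above background on any saline 4 h array. It was at least 2.52-fold higher after LPS at 4 h, taking the lowest signal called well above background as the saline level. The limma fit to the signals of A_52_P607128 gave adjusted p = 2.86e-07 at 4 h, which does not test this bound. At 24 h 1 of its 3 saline arrays was well above background, and its difference was 2.04. For A_52_P127130 1 of 3 saline arrays was well above background at each time, with differences of 1.90 and 2.85. Both of these probes were kept only through the LPS groups, so their differences carry no support of their own. The sizes depend on the background correction. With normexp the 4 h differences of A_51_P404846, A_52_P127130 and A_52_P607128 were 0.62, 0.32 and 0.36, of which the last 2 were not called (adjusted p = 0.278 and 0.108). At 24 h they were 1.16, 0.94 and 0.51, of which the last was not called (adjusted p = 0.0622). In the deposited log2 values they were 0.85, 0.55 and 0.66 at 4 h and 0.96, 0.75 and 0.39 at 24 h, all called.

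**Figure D2:**
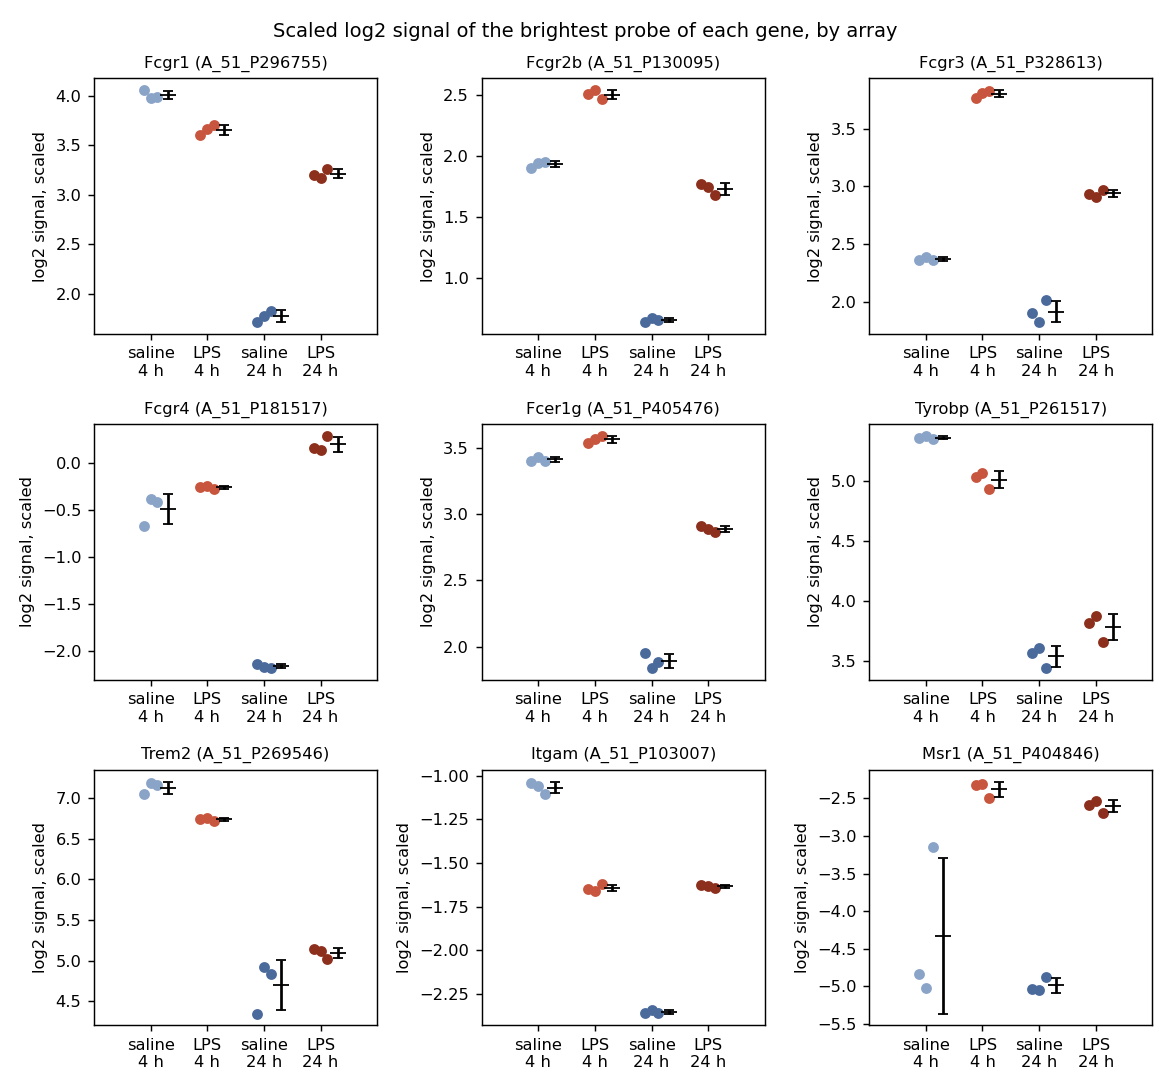
Each panel plots the scaled log2 signal (y axis, log2 units relative to the 75th percentile of the array) of the brightest probe of a gene on the 12 arrays, as 1 point an array, with the mean and SD of each group of 3 beside it. The panels have their own y ranges. The saline 24 h arrays have the lowest group mean in every panel, and for Fcgr1, Tyrobp, Trem2 and Itgam the saline 4 h arrays have the highest.

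The lower 4 h values are relative to arrays whose overall brightness differed between groups. Before scaling, the brighter Fcgr1 probe had processed intensities of 6175, 6085 and 6290 in saline 4 h and of 8986, 8797 and 8711 in LPS 4 h. Tyrobp read 15220, 16020 and 16100 in saline and 24100, 23340 and 20450 after LPS. Unscaled intensities were thus higher after LPS, while the 75th percentile of the same arrays rose from 385 to 702. For the Itgam probe A_51_P103007 the intensities were 180.6, 185.6 and 184.2 in saline and 236, 220.5 and 217.3 after LPS. Itgam remained called lower at 4 h with median scaling, quantile normalization and in the deposited log2 values, whereas Tyrobp and the brighter Fcgr1 probe were not called in the latter 2. The dimmer Fcgr1 probe was called lower in both (-0.37 and -0.29, adjusted p = 0.0436 and 0.0312, limma) and with median scaling (-0.47, adjusted p = 0.0186).

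For 6 of the 9 genes, on the brightest probe, the saline groups differed more from each other than LPS differed from saline at either time. In saline 24 h, 16 of 18 member probes were lower than in saline 4 h and 0 were higher, beside 40.6% of all probes called lower and 38.8% called higher, 79.4% in either direction. The member median was -1.47, against 0.0018 over all probes. The fall was 2.43 on the log2 scale for Trem2 (brighter probe, SE 0.12, adjusted p = 2.99e-08, limma), and Fcgr1 fell by 2.23 (SE 0.043, adjusted p = 5.54e-11). Tyrobp fell by 1.82 (SE 0.063, adjusted p = 1.72e-09) and Fcgr4 by 1.66 (SE 0.071, adjusted p = 7.5e-09). Fcgr3 A_51_P328613 showed the smallest called fall, of 0.46 (SE 0.045, adjusted p = 5.13e-06). The 16 include 1 Msr1 probe, A_52_P607128, which was well above background on 0 saline arrays at 4 h and 1 at 24 h. Time after injection and scan session cannot be told apart in this comparison.

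Each LPS response therefore rests on the saline group it is set against. Set against saline 24 h, LPS 4 h was higher for all 18 member probes, with a median of 1.87, where 33.9% of all probes were called higher and 37.1% lower. Set against saline 4 h, LPS 24 h was higher for 6 member probes and lower for 11, where 40% of all probes were called higher and 39.9% lower. Those 6 were the 3 Msr1 probes, Fcgr4 (0.69, SE 0.071, adjusted p = 7.46e-06), Fcgr3 A_51_P328613 (0.57, SE 0.045, adjusted p = 9.23e-07) and Fcer1g A_51_P405478 (0.14, SE 0.037, adjusted p = 0.00513). Fcgr4, Fcgr3 A_51_P328613, Fcer1g A_51_P405478 and Msr1 A_51_P404846 were thus called higher after LPS at 4 h and at 24 h against either saline group, by the limma fit. For that Msr1 probe, 1 of 3 saline 4 h arrays was well above background. The Fcgr4 call at 4 h against saline 4 h was lost with median scaling, with normexp, in the deposited log2 values and with only the 4 h arrays fitted. Comparisons with the saline group of the other time also cross the scan sessions. Trem2, Tyrobp and Fcgr1 were called lower in LPS 24 h than in saline 4 h, by 2.03, 1.58 and 0.80 on the log2 scale for the brightest probe.

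**Figure D3:**
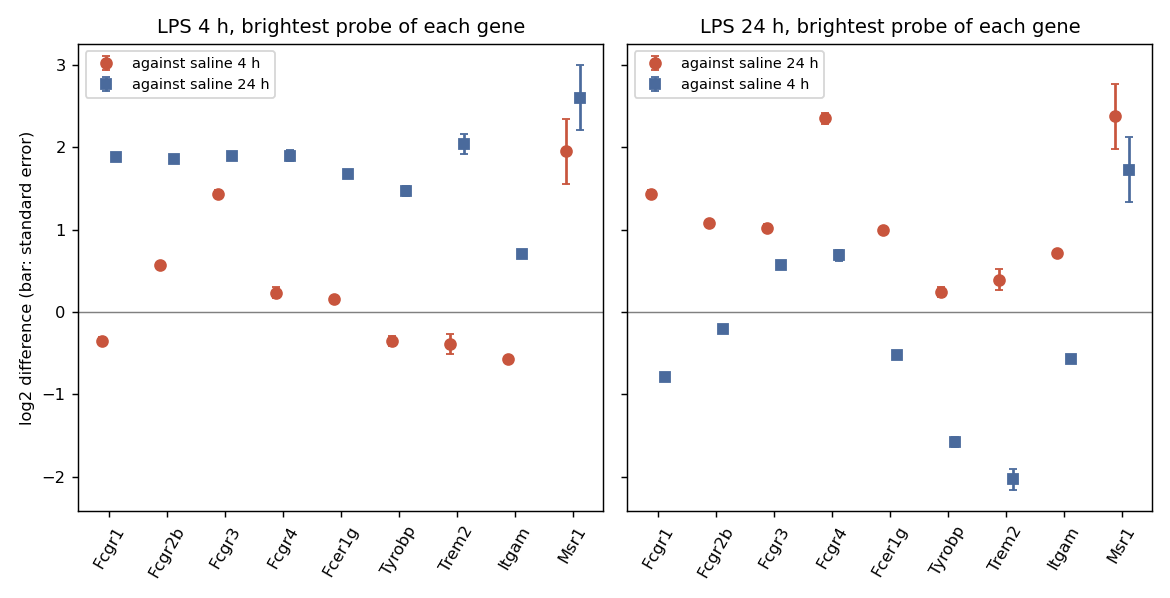
For the brightest probe of each gene, the log2 difference of LPS 4 h (left) and LPS 24 h (right) is plotted against the saline arrays of the same time (circles) and of the other time (squares), with bars for the standard error. Against saline 24 h all 9 genes lie above 0 in LPS 4 h. In LPS 24 h only Fcgr3, Fcgr4 and Msr1 lie above 0 against both saline groups on these probes.

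The LPS response, as the signed log2 difference of LPS minus saline, was compared between the times with an interaction term. It was higher at 24 h for 13 member probes and lower for 1, and 4 were not called. A higher signed value is not always a larger response, since Tyrobp went from -0.35 to 0.24 and Itgam A_52_P669155 from -0.64 to 0.18. Of all probes, 37% were called in the first direction and 28.9% in the second, 65.9% together. The largest differences were those of Fcgr4, 2.12 (SE 0.10, adjusted p = 7.41e-08, limma), and Fcgr1, 1.79 (SE 0.061, adjusted p = 1.14e-08). Itgam differed by 1.29 (SE 0.038, adjusted p = 5.22e-09) and Fcer1g by 0.85 (SE 0.047, adjusted p = 2.19e-07). Fcgr3 A_51_P328613 had the smaller response at 24 h, by -0.41 (SE 0.063, adjusted p = 0.000269), while its other probe went the other way, by 0.30 (SE 0.075, adjusted p = 0.00536). For Trem2 A_51_P269549 the difference was -0.03 (SE 0.066, adjusted p = 0.743), and none of the 3 Msr1 probes was called. Because each time has its own controls and its own scan session, these differences also carry those of the saline groups.

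Levels over the 4 groups followed a few orders. For the brightest probes of Fcgr1, Tyrobp and Trem2 the order from high to low was saline 4 h, LPS 4 h, LPS 24 h and saline 24 h. For Fcgr2b and Fcer1g it was LPS 4 h, saline 4 h, LPS 24 h and saline 24 h. Fcgr3 and Msr1 ran LPS 4 h, LPS 24 h, saline 4 h and saline 24 h, with the last pair overlapping for Msr1. Fcgr4 was highest in LPS 24 h, followed by LPS 4 h, saline 4 h and saline 24 h, and Itgam ran saline 4 h, LPS 24 h, LPS 4 h and saline 24 h with its LPS groups overlapping. No other neighbours in these orders overlapped.

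The downstream partners of these receptors were read on their brightest probes. Itgb2, the beta chain that pairs with Itgam, differed by -0.08 (SE 0.054, adjusted p = 0.189, limma) at 4 h and was higher by 0.76 (SE 0.054, adjusted p = 4.15e-06) at 24 h. Syk was higher by 0.63 (SE 0.062, adjusted p = 7.63e-06) at 4 h and by 0.77 (SE 0.062, adjusted p = 8.86e-06) at 24 h, from saline levels that differed by -0.09 between the times. The phosphatase Inpp5d was higher by 0.18 (SE 0.037, adjusted p = 0.00156) and 0.54 (SE 0.037, adjusted p = 2.91e-06). Ptpn6, the other phosphatase, was lower at 4 h (-0.36, SE 0.055, adjusted p = 0.000184) and higher by 1.04 (SE 0.055, adjusted p = 4.9e-07) at 24 h.

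The list of ITAM signalling genes, Syk included, was higher at 24 h in 15 of 20 measured and lower in 1, with a median log2 difference of 0.64. At 4 h 9 were higher and 7 lower, with a median of 0.11. For this and the lists that follow, the shares of all probes called higher and lower were 31.4% and 39.8% at 4 h and 19.3% and 23.5% at 24 h, and at 4 h most probes were called. At 24 h Vav1, an exchange factor for Rac, was higher by 1.12 (SE 0.077, adjusted p = 3.21e-06, limma). At 4 h the largest called differences were those of the kinase Lyn, 0.85 (SE 0.050, adjusted p = 1.77e-07), and of the adaptor Lcp2 (SLP-76), 0.65 (SE 0.067, adjusted p = 1.05e-05). Of the inhibitory receptors and phosphatases, Inpp5d and Ptpn6 included, 14 of 16 measured were higher at 24 h and 1 lower, and at 4 h 9 were higher and 4 lower. Pirb, an inhibitory receptor for class I MHC, was higher by 1.91 (SE 0.036, adjusted p = 1.06e-09) at 24 h. Cd300lf, a lipid-binding receptor with inhibitory motifs, was higher by 2.86 (SE 0.10, adjusted p = 7.62e-09) at 4 h and by 1.86 (SE 0.10, adjusted p = 7.28e-07) at 24 h. Lilrb4, another receptor with inhibitory motifs, was higher by 1.26 (SE 0.14, adjusted p = 1.92e-05) at 4 h.

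Of 6 measured relatives of the Fc receptors, 2 were higher and 2 lower at 4 h, and 5 were higher at 24 h. Trim21, the Fc receptor of the cytosol, was higher by 0.86 (SE 0.081, adjusted p = 2.64e-05, limma) at 24 h, and the inhibitory receptor Cd300a was lower at 4 h (-0.69, SE 0.066, adjusted p = 6.65e-06). Among 9 measured genes of the TREM family and its ligands, 5 were higher and 1 lower at 4 h, and 4 were higher and 1 lower at 24 h. Trem1, a Tyrobp-coupled receptor of neutrophils and monocytes, was at least 1.77-fold higher at 4 h, with no saline 4 h array well above background. Adam10, a protease that sheds Trem2, was at least 4.04-fold higher at 4 h on its brightest probe. That probe was not well above background on any saline 4 h array and was so on all 3 saline 24 h arrays. The limma fit to the signals themselves gave adjusted p = 0.00122 for Trem1 and 7.8e-06 for Adam10, which do not test these bounds. Treml4, a further TREM-like receptor, was higher at 24 h by 2.14 (SE 0.21, adjusted p = 3.53e-05). Clec5a, a lectin that pairs with Tyrobp, was higher by 0.48 (SE 0.093, adjusted p = 0.00235).

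Of 11 measured integrin partners, Itgb2 included, 7 were higher and 2 lower at 4 h, and 8 were higher and 1 lower at 24 h. Icam1, a ligand of the Itgb2 integrins, was higher by 1.10 (SE 0.042, adjusted p = 1.11e-08, limma) at 4 h. C3, whose cleavage fragment iC3b is a ligand of complement receptor 3, was higher by 1.26 (SE 0.041, adjusted p = 1.92e-08) at 24 h. Fgb, the beta chain of fibrinogen, was at least 2.38-fold higher at 4 h and higher by 1.63 (SE 0.19, adjusted p = 0.000118) at 24 h. The limma fit to the signals of Fgb gave adjusted p = 3.15e-05 at 4 h, which does not test the bound. Of 12 measured scavenger receptors, 4 were higher and 3 lower at 4 h, and 7 were higher and 0 lower at 24 h, beside 71.2% and 42.7% of all probes called in either direction. At 4 h Scara5, a ferritin receptor, was higher by 1.16 (SE 0.094, adjusted p = 1.88e-06) and Cd5l, a secreted macrophage protein, by 0.50 (SE 0.051, adjusted p = 1.07e-05). At 24 h Cxcl16, a membrane-bound chemokine that also binds oxidised lipoprotein, was higher by 1.32 (SE 0.033, adjusted p = 4.42e-09) and Cd5l by 1.30 (SE 0.051, adjusted p = 7.17e-08).

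Of 14 measured engulfment genes, 7 were higher and 3 lower at 4 h, and 9 were higher and 1 lower at 24 h, so that the 4 h share called was close to the 71.2% of all probes, where 42.7% were called at 24 h. At 4 h Elmo1, a partner of Dock proteins in Rac activation, was higher by 0.97 (SE 0.12, adjusted p = 4.78e-05, limma) and Cyth4 by 0.70 (SE 0.048, adjusted p = 5.37e-07). Dock2, a Rac activator of leukocytes, and Was, which drives actin branching, were higher at 24 h by 0.91 (SE 0.084, adjusted p = 2.45e-05) and 0.86 (SE 0.041, adjusted p = 2.4e-07). All of these lists hold genes chosen with earlier results of these data known.

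**Figure D4:**
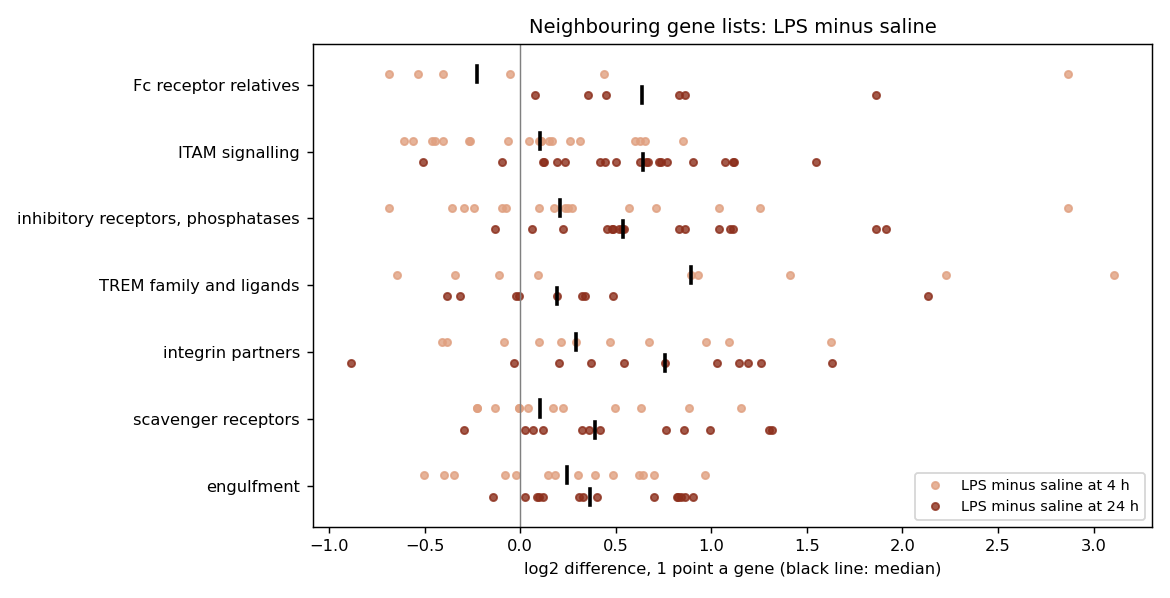
The log2 difference of LPS minus saline (x axis) is plotted for every measured gene of 7 lists, 1 point a gene, at 4 h (light) and 24 h (dark), with a black line at the median of each list. At 24 h most points of the ITAM signalling list and of the inhibitory list lie above 0, with medians of 0.64 and 0.54.

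Hippocampus holds several cells that can carry these receptors, and in tissue RNA fewer cells of a type and less RNA per cell cannot be told apart. All 12 microglial markers were measured. Their summed scaled signal (linear, relative to the 75th percentile) at 4 h was 200.3 to 208.9 for saline and 153.4 to 161.6 for LPS. At 24 h it was 78.8 to 84.3 for saline and 103.3 to 106.1 for LPS. The sums have the order seen for Fcgr1, Tyrobp and Trem2, but the markers did not all move together: between the saline groups 4 of 12 were higher and 7 lower at 24 h, with a median log2 difference of -0.28. At 4 h 3 of the 12 were higher and 7 lower, and at 24 h 9 were higher and 2 lower. The log2 differences of the 12 ran from -1.30 to 0.63 at 4 h, with a median of -0.36. At 24 h they ran from -0.68 to 0.80, with a median of 0.37. Aif1, 1 of these markers, differed by -0.84 at 4 h and by 0.80 at 24 h. It lies at the upper end of the 24 h range and does not stand for the list. The part of the microglial markers in the member differences was not tested.

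Markers of neutrophils and monocytes summed at 4 h to 18.5 to 18.7 for saline and 23.4 to 24.1 for LPS, and at 24 h to 9.23 to 9.98 for saline and 20.0 to 21.5 for LPS. Of 12 measured, 8 were higher at 4 h and 7 at 24 h, with 0 lower at either time. The median log2 difference of the 12 was 1.28 at 4 h and 1.12 at 24 h. S100a9 differed by 3.70 and 1.12 and Ly6c2 by -0.03 and 1.14. A sum of linear signal weighs the brightest genes most, so it is not a level shared by the 12 markers. Elane, Camp and Ccr2 were not kept, and no probe carries the name Ly6g. Macrophages of the brain borders had 9 of 9 markers measured, with sums of 5.06 to 5.18, 4.73 to 4.74, 2.94 to 3.16 and 5.25 to 5.46 in the same order of groups (saline then LPS, at 4 h and then at 24 h). For them 3 were higher and 3 lower at 4 h, and 4 were higher and 0 lower at 24 h, where Stab1 differed by 0.76 and Cbr2 by 1.15. The part of these cells in the values of Fcgr3, Fcgr4 and Msr1 was not tested.

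Fcgr2b is also the Fc gamma receptor of B cells. B-cell markers were measured for 3 of 8, and Ms4a1 and Pax5, which define these cells, were not well above background on all 3 arrays of any group. The sums were 0.356 to 0.378, 0.177 to 0.201, 0.136 to 0.160 and 0.217 to 0.230 in the same order, and Cd79b, the brightest, differed by -1.07 at 4 h and 0.73 at 24 h. Markers of natural killer and mast cells were measured for 5 of 12, with sums of 0.604 to 0.629, 1.55 to 1.66, 3.02 to 3.19 and 2.44 to 2.49. Among them 4 were higher at 4 h and 3 lower at 24 h, and Kit and Klrb1c, the brightest, differed by 1.44 and 0.97 at 4 h. Ncr1, Gzma, Cpa3 and Ms4a2 were not kept.

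Tissue markers also differed between the groups. Markers of hippocampal excitatory neurons, 10 of 10 measured, summed at 4 h to 60.8 to 61.0 for saline and 79.9 to 81.3 for LPS, and at 24 h to 95.5 to 100.7 for saline and 80.7 to 82.6 for LPS. Camk2a differed by 1.01 at 4 h and -0.40 at 24 h. Those of the neighbouring thalamus, 7 of 7, summed to 18.7 to 19.5, 13.5 to 13.6, 7.11 to 7.55 and 11.7 to 12.1, the order of the microglial sums. The median log2 difference of the 7 was -0.24 at 4 h (range -1.29 to 1.21) and 0.23 at 24 h (range 0.17 to 1.26), with Zic1 at -0.38 and 1.13. Of these 7, 2 were higher and 4 lower at 4 h, 7 were higher at 24 h, and 3 were higher and 4 lower between the saline groups. For red blood cells, with 6 of 7 listed names read (2 through the same haemoglobin probe), the sums were 605.6 to 618.3, 258.2 to 269.7, 295.1 to 319.8 and 183.3 to 189.8. Hbb-b1 differed by -1.49 and -0.91. How much these differences between the dissected samples bear on the member values was not tested.

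Among 15086 named genes, the 4 whose group means over the 4 groups lay nearest to those of Fcgr1 after centring were Naip5, Uba7, C3 and Lgals3bp, at root mean square distances of 0.071 to 0.11 log2 units. C3 differed by -0.41 at 4 h, 1.26 at 24 h and -2.0 between the saline groups. For Tyrobp the nearest were Wasf2, Tmem268, Eva1a and Lhx5, at 0.027 to 0.048. Wasf2 differed by -0.42, 0.25 and -1.88 in the same order. Both lists describe likeness over 4 group means only.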

How the data were processed

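Per the file headers, the authors' scanner files come from Agilent Feature Extraction 10.7.3.1 (9.1 per the submitters' processing notes) and hold background-subtracted processed intensity for each spot on build mm9, with nothing scaled between arrays. Their deposited matrix holds log2 values with array medians of 6.98 to 6.99. How it was made is not given in the sources used here, but each array correlated at 0.9999 or above with normexp and quantile normalized values, so its scale is log2.

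Here processed intensity was taken as log2, 926 spots with outlier flags were left out, each array's 75th percentile was then subtracted, and spots of a probe were averaged. Kept probes had 1 or more groups with all 3 arrays well above background. Group means over 12 arrays were fitted with limma 3.58.1 in R 4.3.3, with Benjamini-Hochberg adjustment over 27683 probes (threshold 0.05, two-sided), and every adjusted p is from such a fit. The procedure was tested on simulated data. All member probes are named; from each neighbouring list the 2 largest called, non-overlapping changes per time are named, except a result that is not reported here. Members and lists were chosen with earlier results of these data known. Alternatives covered background correction, scaling, filter, probe rule, blocks, thresholds, single arrays left out and the controls of the other time. No member probe was added through its accession, and 12 arrays limit the precision.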

Additional observations from a re-analysis of the deposited data

Results flagged for a closer look

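For 14 of the 18 member probes the LPS response differed between the times by the interaction term of the limma fit, beside 65.9% of all probes. The values are the log2 response at 24 h minus that at 4 h. The positive ones were Fcgr4 A_51_P181517 2.12, Fcgr1 A_51_P296755 1.79 and A_52_P47846 1.54, Itgam A_51_P103007 1.29 and A_52_P669155 0.82, and Fcer1g A_51_P405476 0.85 and A_51_P405478 0.45. Smaller positive values were those of Trem2 A_51_P269546 0.78, Tyrobp 0.59, Fcgr2b A_52_P545613 0.55, A_51_P130101 0.52 and A_51_P130095 0.51, and Fcgr3 A_52_P408757 0.30. Fcgr3 A_51_P328613 was the exception at -0.41.

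Of the named neighbouring genes whose response was measured at both times, 17 differed in the same test, with 14 positive and 3 negative values. Of all probes, 37% were called positive and 28.9% negative in that test. C3 stood at 1.67, Cd300a at 1.52, Cxcl16 at 1.45, Ptpn6 at 1.40, Pirb at 1.34 and Vav1 at 1.07. Itgb2 stood at 0.84, Cd5l at 0.80, Clec5a at 0.60, Was at 0.47, Trim21 at 0.43, Dock2 at 0.42, Inpp5d at 0.36 and Lcp2 at 0.25. The negative values were those of Cd300lf at -1.0, Elmo1 at -0.94 and Lyn at -0.20. Time and scan session cannot be told apart in any of these values.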

How the results depend on the processing

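At 24 h the member probes called higher numbered 14 to 17 of 18, with 0 called lower, under every alternative that kept the 18 probes and the controls of the same time. With 1 probe a gene or the mean of a gene's probes they were 9 of 9, and at 4 h 5 were higher and, by the mean, 3 lower. At 4 h the higher count fell to 7 with normexp background correction and to 6 with a 1.5-fold minimum. The lower count of 5 fell to 3 with quantile normalization, with normexp and quantile, in the deposited matrix and at an adjusted p under 0.01, and to 1 with a 1.5-fold minimum. With the saline arrays of the other time as controls it was 0 at 4 h, and at 24 h 6 were higher and 11 lower. For the response difference, 2 (quantile) or 3 (normexp and quantile, deposited matrix) probes were lower. A 1.5-fold minimum left 8 higher and 0 lower, and the gene-level settings 7 higher, with 0 lower by the mean. Saline 24 h was lower than saline 4 h for 8 or 9 genes in the same settings. Leaving out single arrays gave 12 higher and 4 to 5 lower at 4 h, 16 to 17 higher at 24 h, 12 to 13 higher for the difference, and 16 to 18 lower in saline.

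Signs turned at 4 h as follows. Trem2 A_51_P269546 was 0.15 with quantile, 0.16 with normexp and quantile and 0.15 in the deposited matrix. Tyrobp was 0.056, 0.026 and 0.021 in the same settings. Fcer1g A_51_P405476 was -0.012 with median scaling, Treml4 -0.10 with normexp and Cxcl16 0.32 with the mean of its probes. Against the saline arrays of 24 h, the 4 h values were Fcgr1 1.88 and 1.57, Itgam 0.71 and 1.26, Trem2 2.04, Tyrobp 1.47, C3 1.59, Cd300a 0.40, Clec5a 0.99, Cxcl16 1.65, Cyth4 -0.093, Elmo1 -0.27, Itgb2 0.49, Ptpn6 0.74 and Treml4 -0.21. Against the saline arrays of 4 h, the 24 h values were Fcgr1 -0.80 and -0.64, Fcgr2b -0.20, -0.41 and -0.54, Fcgr3 A_52_P408757 -0.11, Fcer1g A_51_P405476 -0.53, Itgam -0.57 and -1.72, Trem2 -2.03 and -1.26 and Tyrobp -1.58. In that setting Adam10 was 2.59, C3 -0.74, Cd300a -0.26, Cd300lf -1.18, Cd5l -0.11, Clec5a -0.62, Cxcl16 -0.47, Icam1 -1.66, Inpp5d -0.76, Ptpn6 -0.063 and Trim21 -0.39. Between the saline groups normexp turned Dock2 to -0.11, Scara5 to -0.45 and Treml4 to -0.61, and the mean of its probes turned Lyn to 0.50. Apart from the choice of controls, the cause of these turns was not tested.

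The median of all probes at 4 h was -0.09, but -0.25 with median scaling, -0.17 with normexp and 0.03 with the percentile over bright probes, and the share of called probes that were higher was 44.1%, 32.6%, 36.4% and 53.2%. At 24 h median scaling lowered that share from 45.1% to 30.9%. In the saline comparison the all-probe median was -0.41 with normexp and -0.19 with median scaling, with shares of 27.2% and 39.2% against 48.8%. All probes called numbered 19704 at 4 h and 11827 at 24 h, but 12076 and 4430 with normexp, 12839 and 7827 genes by the mean of probes, and 9171 and 2122 with a 1.5-fold minimum; the controls of 4 h gave 22127 at 24 h. For the response difference 18238 became 10070, 11885 and 10035 in these 3 settings, and for saline 21979 became 14303 by the mean and 14193 at 1.5-fold. Replicate numbers were not used to pair the samples. Deviations of same-numbered arrays correlated at -0.15 to 0.17 at 4 h and 0.03 to 0.08 at 24 h. Those of differently numbered arrays correlated at -0.30 to 0.25 and -0.064 to 0.006. Arrays of the same slide at 4 h correlated at -0.05, 0.17 and 0.25. At 24 h the same number is also the same slide, so number and slide cannot be told apart. A replicate block gave 12 higher and 5 lower at 4 h and 16 higher at 24 h, losing Trem2 A_51_P269546 (adjusted p = 0.062), and the slide as a block gave the same counts (adjusted p = 0.0569). Signals near background limit the values of Msr1, and of Adam10 and Treml4, which were not well above background on any saline 4 h array.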
